A study of Homo sapiens with 6 samples.

Results

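The chromosome arms described here are those of human chromosomes 3, 4, 6, 13, 18 and 21 outside a window around each centromere. The data are H3K9me3 ChIP-seq peaks of PC-3, an established prostate adenocarcinoma line that came from a metastasis in bone. A peak belonged to these arms when its midpoint on hg19 lay outside a window of 7 Mb centred on the centromere gap, or past the first 21 Mb on chromosome 13. By this rule 301 of the 2826 peaks of the 3 deposited lists were members. They were 110 of 1334 peaks in untreated cells, 180 of 1220 peaks after 6 h of TGF-β1 and 11 of 272 peaks after 24 h of TGF-β1. All cells had first been kept without serum for 24 h, and TGF-β1 was given at 5 ng/mL. Each condition had 1 H3K9me3 library and 1 input library, so no difference between conditions could be tested.

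H3K9me3 is histone H3 trimethylated at lysine 9. It is written by methyltransferases such as SUV39H1 and SETDB1 and bound by HP1 proteins, and it marks compact, silent chromatin. It is best known from the satellite repeats beside centromeres. On chromosome arms it covers retrotransposons, clusters of zinc finger genes and gene-poor stretches, often in broad domains. TGF-β1 is a secreted cytokine that signals through SMAD proteins and changes growth and matrix genes in epithelial cells.

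The label gene-poor held for the chromosomes as a group, and least for chromosome 6. In the RefSeq gene table (GRCh38.p14), the 6 chromosomes carried 4.66 protein-coding genes per Mb, against 6.47 over all chromosomes. Chromosomes 13, 18 and 4 were among the 4 lowest of 24, with 2.93, 3.46 and 4.03 genes per Mb. Chromosome 21 had 4.97 and chromosome 3 had 5.38. Some chromosomes outside the set were as poor in genes. Chromosome 8 had 4.89, below chromosome 21, and chromosomes 5 and 2 had 4.997 and 5.16, below chromosome 3. Chromosome 6 had 6.13, close to the value of the whole genome and above that of 15 other chromosomes.

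The lists were peaks called by the authors separately in each library, and their read totals are not given by the files. The authors' fold is the fragment pileup at a peak's summit over the local background, and their −log10 q is its significance after adjustment. The smallest −log10 q of any peak was 1.31. The local background that recurred as the lowest value of a list is called its genome-wide background below. It was 1.89, 1.73 and 2.66 fragments in the control, 6 h and 24 h lists. Names inside both treated lists carry a word for filtered alignments that the control list lacks, so the read filters may have differed between lists.

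H3K9me3 peaks were sparse on these arms in every list. The arms make up 26.4% of the length of all chromosome arms. They held 13.4% of the arm peaks of the control (110 of 820, exact 95% binomial interval 11.2 to 15.9), 15.6% of those at 6 h (180 of 1152, 13.6 to 17.9) and 9.40% of those at 24 h (11 of 117, 4.79 to 16.2). Per Mb there were 0.149 control peaks (exact 95% Poisson interval 0.123 to 0.180), against 0.346 (0.321 to 0.372) on the arms of the other chromosomes. At 6 h the values were 0.244 (0.210 to 0.283) and 0.473 (0.444 to 0.504). At 24 h they were 0.0149 (0.00746 to 0.0267) and 0.0516 (0.0422 to 0.0624). In each list the members' interval lay below that of the other arms. The chromosomes were grouped with earlier results of these data known, so the intervals only describe this grouping. The lower density held for the arms together and not for each chromosome. At 6 h chromosome 21 had 0.534 peaks per Mb (0.311 to 0.855), above the value of the other arms. At 24 h chromosomes 18 and 21 were above it, at 0.0563 (0.0153 to 0.144) and 0.0628 (0.00761 to 0.227), from 4 and 2 peaks. In the control every chromosome was below it. These intervals cover counting error only, neighbouring peaks are not independent, and no test was made between sets of peaks. The DNA copy number of each arm in this line is not given. Its part in these densities, and in the stretches described below, was not tested.

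As a part of their lists, the members were 8.25% of the control peaks (6.83 to 9.85), 14.8% at 6 h (12.8 to 16.9) and 4.04% at 24 h (2.04 to 7.12). The balance between arm and centromere on the 6 chromosomes followed that of the whole lists. Arm peaks were 110 of the 192 control peaks there (57.3%, 49.97 to 64.4), 180 of 194 at 6 h (92.8%, 88.2 to 96.0) and 11 of 31 at 24 h (35.5%, 19.2 to 54.6). Over all chromosomes the shares were 61.5% (820 of 1334), 94.4% (1152 of 1220) and 43.0% (117 of 272).

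**Figure D1:**
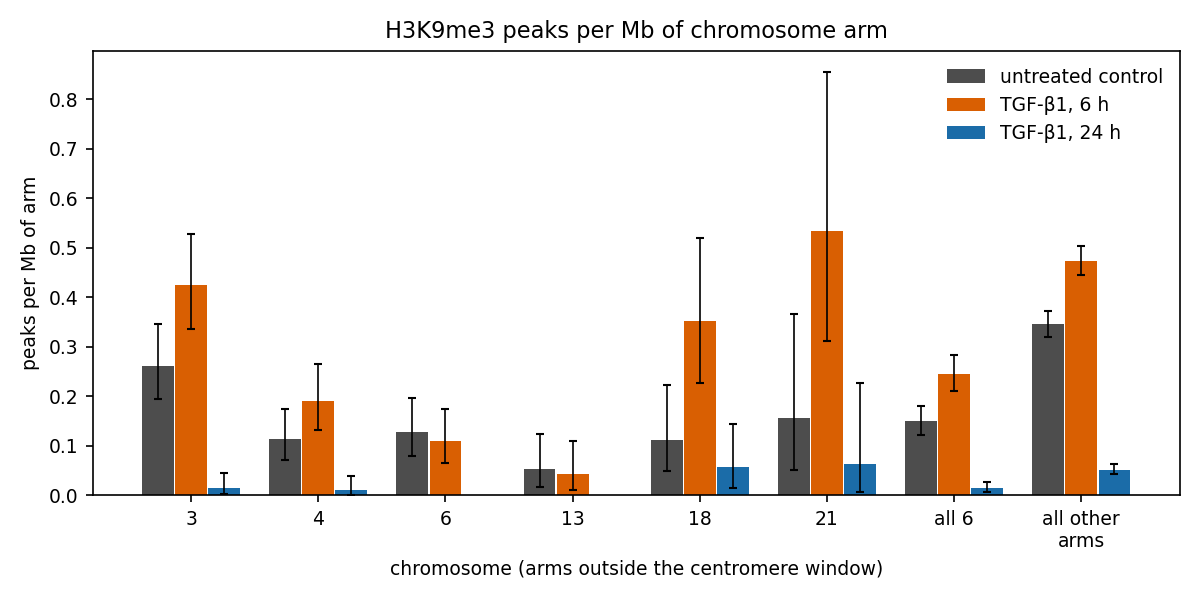
H3K9me3 peaks per Mb of arm (vertical axis) for each of the 6 chromosomes, for the 6 together and for all other arms (horizontal axis). Bars are 1 library each and error bars are exact 95% Poisson intervals, left out where a list had 0 peaks. Chromosomes 21 and 3 had the most 6 h peaks per Mb, at 0.534 and 0.424, and chromosome 13 the fewest, at 0.0425.

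The 6 chromosomes did not share their peaks evenly. Chromosome 3 held 50 of the 110 control members (45.5%), 81 of the 180 at 6 h (45%) and 3 of the 11 at 24 h. Chromosome 4 held 21 control peaks, 35 at 6 h and 2 at 24 h. Chromosome 6 held 21, 18 and 0. Chromosome 13, the poorest in genes of the 6, held 5, 4 and 0 peaks on 94.2 Mb.

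Chromosomes 18 and 21 had few control peaks and more at 6 h. On chromosome 18 the lists had 8, 25 and 4 peaks, or 0.113 control peaks per Mb (0.0486 to 0.222) and 0.352 6 h peaks per Mb (0.228 to 0.519). On chromosome 21 they had 5, 17 and 2 peaks, or 0.157 control peaks per Mb (0.0510 to 0.366) and 0.534 6 h peaks per Mb (0.311 to 0.855). Most of these 6 h peaks were weak. At −log10 q of 5 or more, the control and 6 h lists had 2 peaks each on chromosome 18, and 0 and 1 on chromosome 21. The 2 strong peaks of chromosome 18 at 6 h, from 3604500 to 3604786 and from 27472650 to 27472915, had a −log10 q of 5.99 and 6.19. The one on chromosome 21, from 16386146 to 16386400, had 5.35. None of these 3 overlapped a peak of another list.

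Within a chromosome the peaks kept to certain stretches. All 35 of the 6 h peaks of chromosome 4 were on the long arm, and its short arm held 3 control peaks. On chromosome 6, 16 of 21 control peaks and 16 of 18 peaks at 6 h were on the short arm. On chromosome 18, 7 of 8 control peaks and 19 of 25 peaks at 6 h were on the short arm. The 6 peaks at 6 h on the long arm of chromosome 18 all lay below 30 Mb, and the control had 1 peak on that arm, between 70 and 80 Mb. On chromosome 3, the stretch from 80 to 90 Mb, which runs up to the centromere window, held 13 6 h peaks, 3 control peaks and 1 24 h peak. On chromosome 4 the stretch from 60 to 70 Mb held 13, 4 and 1.

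**Figure D2:**
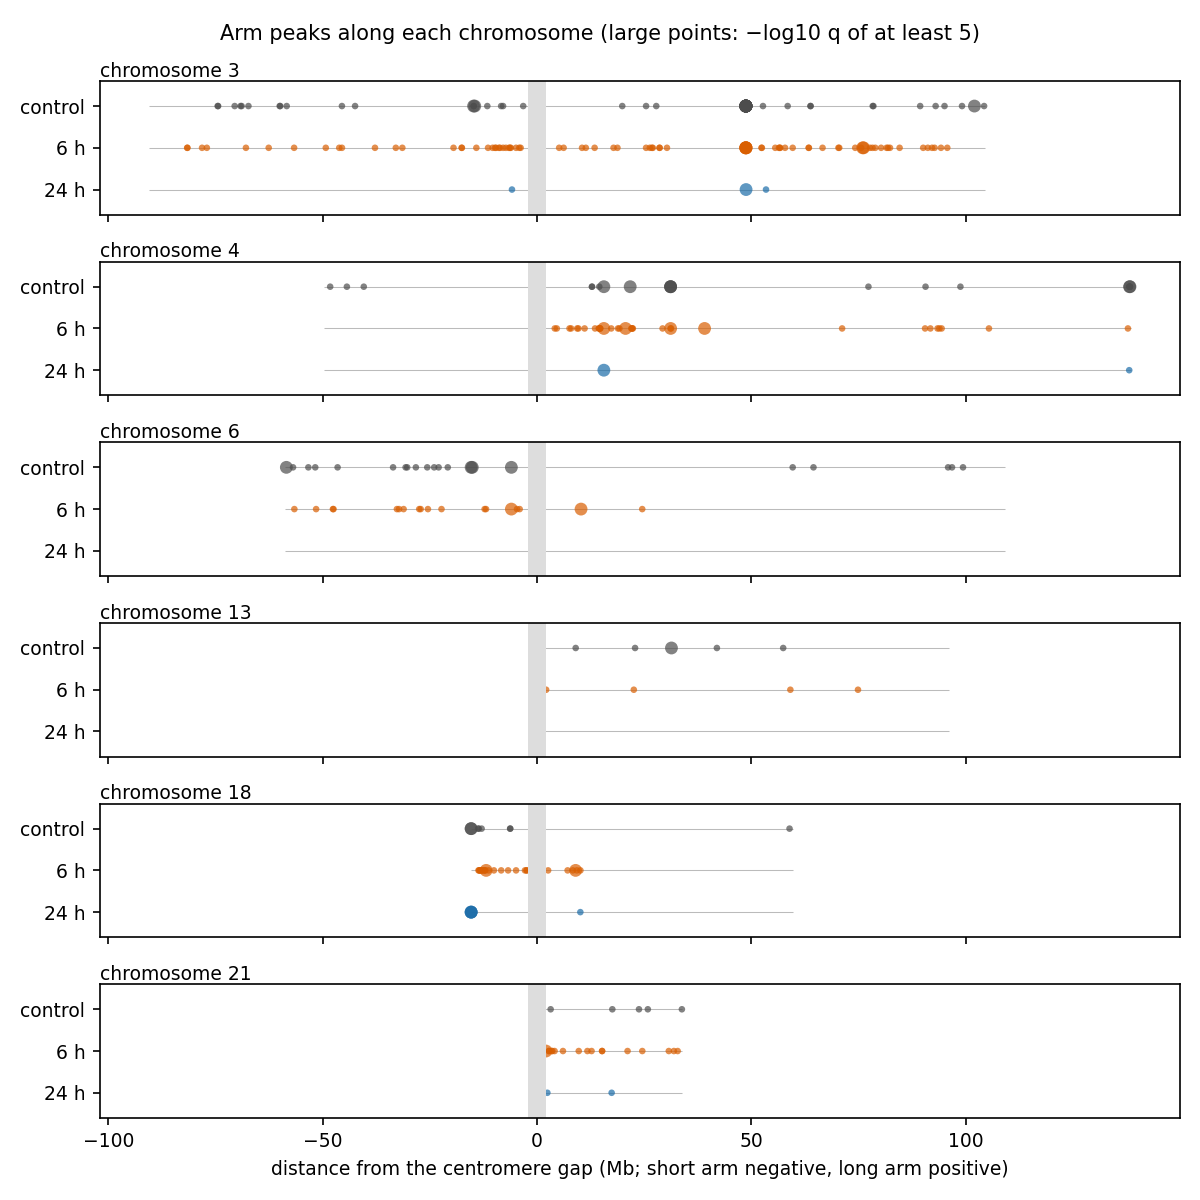
Position of each arm peak as its distance from the centromere gap in Mb (horizontal axis; short arm negative) for the 6 chromosomes, with 1 row of points per list. The grey band spans 2 Mb on each side of the gap and large points have a −log10 q of at least 5. At 6 h the chromosome 4 peaks are all on the long arm, and on chromosome 6 the short arm holds 16 of 18.

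Most members were weak, narrow peaks, and so were those of the other arms. The median width was 235 bp over control members, 257 bp at 6 h and 351 bp at 24 h, against 228, 264.5 and 231.5 bp on the arms of the other chromosomes. Median folds within the lists were 4.16, 4.40 and 4.0002, against 4, 4.10 and 3.71 on the other arms. Median −log10 q values were 2.82, 2.46 and 4.32, against 2.82, 2.35 and 3.11. A −log10 q of at least 5 was reached by 33 of 110 control members (30%, 21.6 to 39.5), where 41.3% of all control peaks reached it. At 6 h 16 of 180 did (8.89%, 5.17 to 14.03), close to the 8.85% of the whole list. At 24 h 5 of 11 did (45.5%, 16.7 to 76.6), against 60.3% of the list. The whole lists include the centromere windows. On the other arms the shares were 17.5% (124 of 710, 14.7 to 20.461) in the control, 6.38% (62 of 972, 4.93 to 8.10) at 6 h and 21.7% (23 of 106, 14.3 to 30.8) at 24 h. Without ATR and THAP9 the members' shares were 15.4% (14 of 91, 8.67 to 24.5), 5.78% (10 of 173, 2.81 to 10.4) and 40% (4 of 10, 12.2 to 73.8).

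The number of fragments behind the weak peaks was small. The summit pileup could be recovered from the fold and p-value of every control and 6 h member and of 9 of the 11 at 24 h. It was 10 to 15 fragments in 66 of 110 control members (60%) and in 150 of 180 at 6 h (83.3%), where the whole lists had 38.9% and 64.8%. At 24 h it was so in 3 of 11, against 6.62% of the list. The whole lists include the centromere windows. Median recovered pileups were 14, 13 and 17 fragments over control, 6 h and 24 h members. They were similar on the arms of the other chromosomes, at 15, 14 and 19. The local background was equal to the genome-wide one in 30 control members (27.3%), 51 at 6 h (28.3%) and 3 at 24 h (27.3%), against 16.7%, 12.2% and 4.78% of the lists. On the other arms it was so in 113 of 710, 96 of 972 and 10 of 106 peaks. Relative to the genome-wide value, the median local background was 1.27 over the control members and 1.23 over the 6 h members. On the other arms this ratio was 1.46 and 1.48. The same ratio was 11.6 and 1.65 for the control and 6 h peaks in the centromere windows of these chromosomes.

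**Figure D3:**
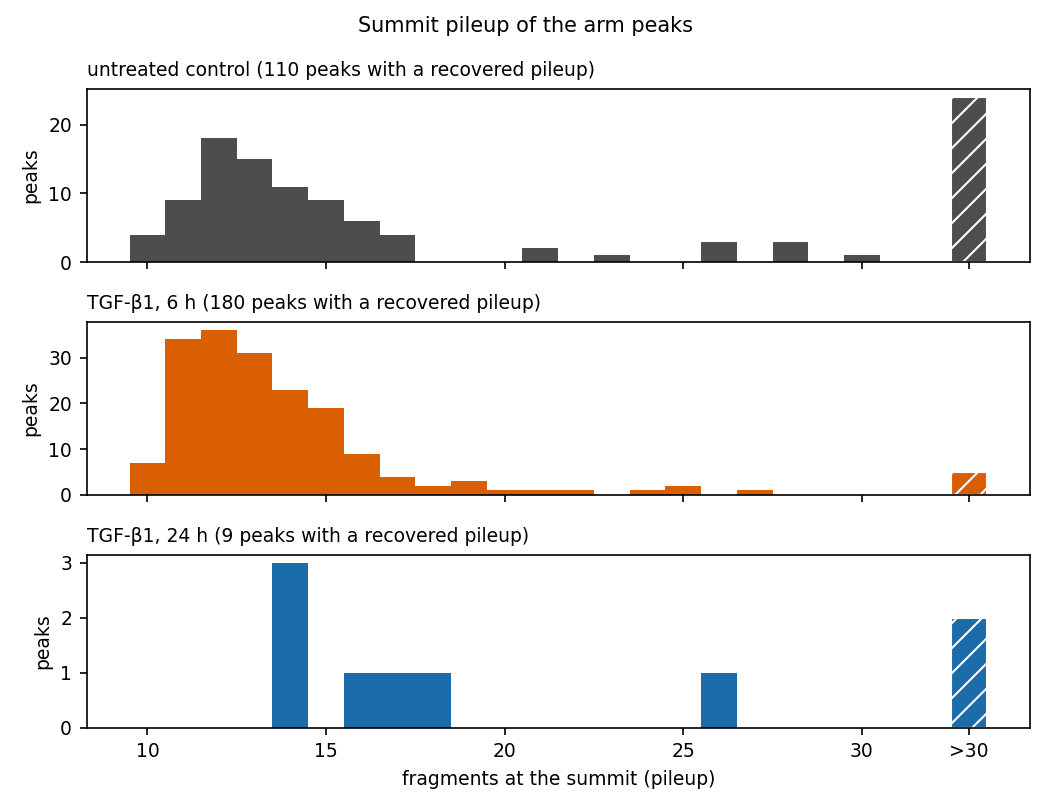
Number of arm peaks (vertical axis, own scale per panel) by the fragments at their summit (horizontal axis), for the peaks with a recovered pileup, with 1 panel per list. The hatched bar counts peaks with more than 30 fragments. Most peaks of the control and 6 h lists stand between 10 and 15 fragments.

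The strong members were gathered at few places, and 2 genes held most of those in the control. On chromosome 3, a cluster from 142177799 to 142281952 held 16 control peaks, 5 at 6 h and 1 at 24 h. By general knowledge of hg19 it lies in ATR, which encodes a checkpoint kinase that responds to stalled replication forks. On chromosome 4, 3 control and 2 6 h peaks between 83825889 and 83840074 lie, by the same knowledge, in THAP9, a gene derived from a transposase. These positions were not checked against an annotation of hg19. Of the 33 control members with a −log10 q of at least 5, 19 were at these genes, as were 6 of the 16 at 6 h and 1 of the 5 at 24 h. All 13 control members with a fold of at least 10 were there, where 2.62% of all control peaks had such a fold. At 6 h 4 of 5 were, where 0.902% of the list had such a fold, and the fifth was on chromosome 6. At 24 h no member or other peak reached that fold. Peaks at these genes were 23.5% of the bases covered by control members and 9.37% of those at 6 h.

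**Figure D4:**
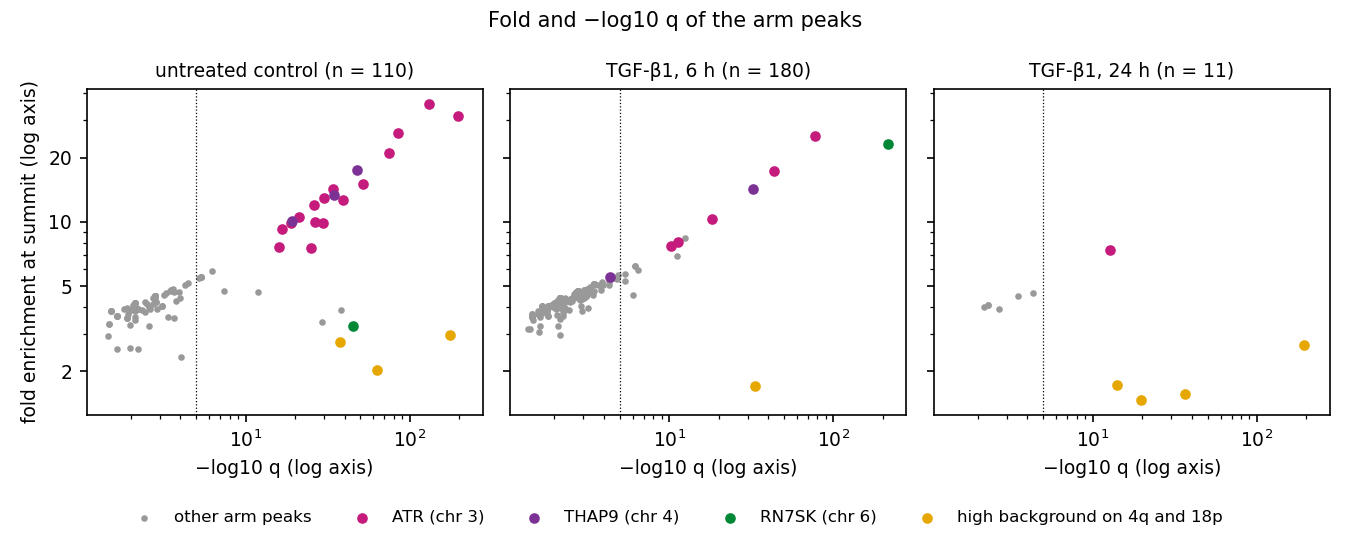
The authors' fold (vertical axis, log scale) against −log10 q (horizontal axis, log scale) of every arm peak, with 1 panel per list and a dotted line at a −log10 q of 5. Control peaks at ATR and THAP9 all lie right of the line with folds of 7.53 to 35.7. Peaks of high background on 4q and 18p reach similar −log10 q with folds of 2.96 or less.

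The ATR peaks of the control and 6 h lists shared their edges. Control folds ran from 7.53 to 35.7 with a median of 12.3. The 5 control peaks also present at 6 h were 235 to 879 bp wide, with folds of 14.97 to 35.7 and pileups of 62 to 171 fragments. The 11 absent at 6 h were 180 to 213 bp wide, with folds of 7.53 to 14.2 and pileups of 26 to 52. The pairs differed by at most 5 bp at either edge, and 3 of the 5 had identical starts and ends. The sole 24 h peak had the same start as its control and 6 h partners and ended 61 bp before them. At THAP9, the edges of the 2 overlapping pairs differed by up to 85 and 90 bp.

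In each shared ATR and THAP9 peak the authors' fold was higher in the control list than in the 6 h list. The ATR peak from 142177799 to 142178226 had a fold of 21.03 in the control, and the overlapping 6 h peak had 8.07. That from 142188179 to 142188413 had 25.97 and 7.70. The THAP9 peak from 83827515 to 83827780 had 13.3, and its 6 h partner had 5.50. The folds were scaled within each list and do not measure a change of the mark. The local background was low here, at 1.00 to 3.06 times the genome-wide one over the control ATR peaks and equal to it in all 5 at 6 h. The source of this DNA was not tested.

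**Figure D5:**
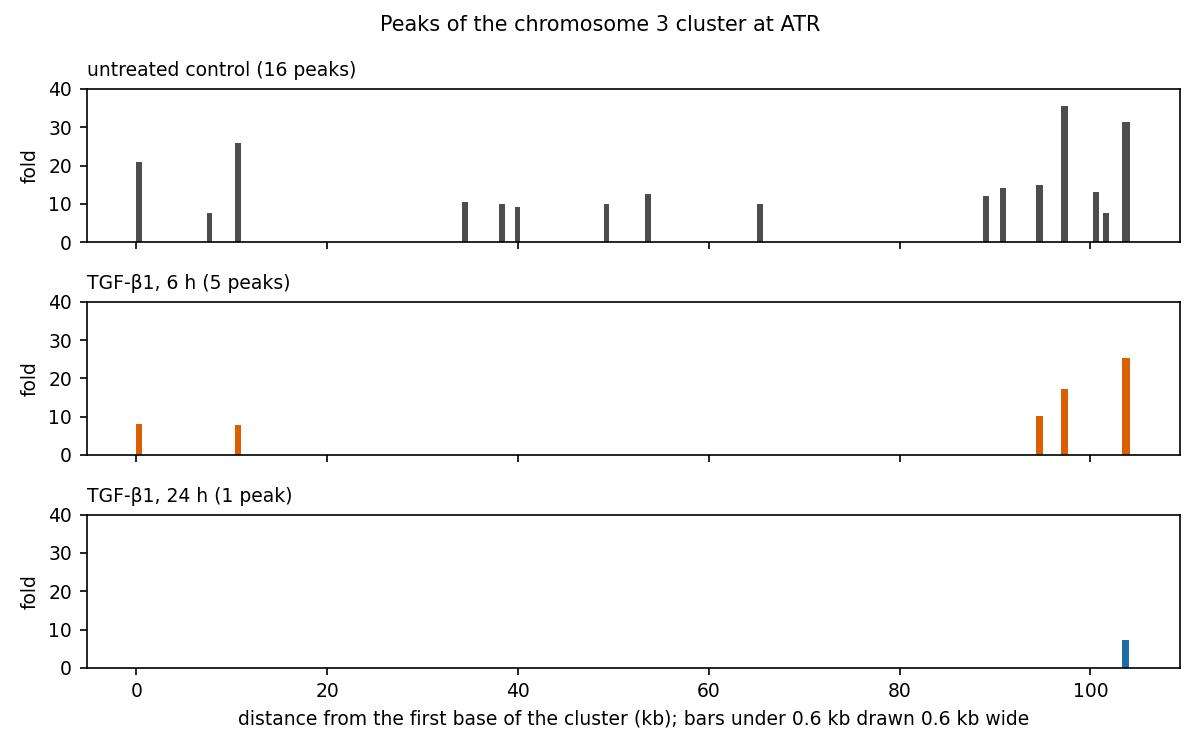
Fold (vertical axis) of each peak of the chromosome 3 cluster at ATR against its distance in kb from the cluster's first base (horizontal axis), with 1 panel per list. Bars span the peak, or 0.6 kb where a peak is narrower. The 5 peaks at 6 h and the 1 at 24 h stand at positions of control peaks.

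Strong peaks outside these 2 genes were few, with 14 control peaks, 10 at 6 h and 4 at 24 h that reached a −log10 q of 5. The highest −log10 q of all 6 h members, 216, belonged to the peak on chromosome 6 from 52860432 to 52860712. By general knowledge of hg19 it lies in RN7SK, which encodes the abundant 7SK small nuclear RNA that restrains the elongation factor P-TEFb. Its fold was 23.0 at 6 h, with a pileup of 221 fragments over a local background 5.01 times the genome-wide one. The control peak inside it had a fold of 3.26 with 224 fragments, over a local background 36.0 times the genome-wide one. The 2 pileups were close in number, and the local backgrounds were not. Read totals are not given, so the pileups cannot be compared between the 2 libraries. The cause of the difference in fold was not tested. The 24 h list had no peak at this place.

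Also on chromosome 6, the 6 h list had a peak from 72113127 to 72113423 with a fold of 6.93 and a −log10 q of 11.1, with 25 fragments, and neither other list had a peak there. By general knowledge of hg19 it spans MIR30A, the gene of a microRNA of the miR-30 family. The family is known for repressing genes of the epithelial to mesenchymal transition, a programme that TGF-β1 can induce. The RefSeq sequences (GRCh38.p14) are shown because this was the only microRNA gene recognised among the strong members. Capitals mark the seed, bases 2 to 8, in the mature form and the mature form itself in the hairpin.
hsa-miR-30a-5p: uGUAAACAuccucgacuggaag
MIR30A hairpin: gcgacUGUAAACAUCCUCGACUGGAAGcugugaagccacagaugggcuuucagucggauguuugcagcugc

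On the short arm of chromosome 6, a control peak from 43737336 to 43737529, just upstream of VEGFA by general knowledge of hg19, had a fold of 3.87 and a −log10 q of 38.3, with 152 fragments. Its local background was 20.4 times the genome-wide one, and no treated list had a peak there. VEGFA encodes a growth factor for blood vessels.

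A further set of strong members combined low folds with very high pileups. On chromosome 4 a peak near 68265483 was present in all lists. Its folds were 2.96, 1.71 and 2.66 in the control, 6 h and 24 h lists. Its pileup was 971, 700 and 1278 fragments, and its local background 174, 237 and 180 times the genome-wide one. It was the member with the highest −log10 q at 24 h, 193, and the second highest in the control, 175.

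At the tip of the short arm of chromosome 18, between 107890 and 110925, the control had 2 peaks and the 24 h list 3. The 6 h list had none there. The control peaks had folds of 2.02 and 2.75 over local backgrounds 201 and 47.3 times the genome-wide one. The folds at 24 h were 1.57, 1.47 and 1.73. These 3 peaks and the one on chromosome 4 were 4 of the 5 strong members at 24 h, and the fifth was at ATR, from 142281074 to 142281891, with a fold of 7.37.

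The remaining strong members were mostly close to a −log10 q of 5. The control had 9, with folds of 3.40 to 5.89. On chromosome 3 the peak from 75718219 to 75718611 had a −log10 q of 29.3 over a local background 21.4 times the genome-wide one. The 6 h list had 7 others, with folds of 4.53 to 8.44. The highest was on chromosome 4 from 73321838 to 73322069, with 22 fragments over the genome-wide background and no partner in the other lists. The 6 weak members at 24 h had folds of 3.91 to 4.64. They included the peak on chromosome 18 from 28579604 to 28579827 (4.51) and 2 on chromosome 3, from 84675224 to 84675574 and from 146935558 to 146935757 (4.10 each).

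The end of the long arm of chromosome 4 held a group of control peaks. Between 190817965 and 191003823 the control had 7 peaks, the 6 h list 0 and the 24 h list 1. This subtelomere carries the D4Z4 repeat array, a known site of H3K9me3. The control folds were 2.57 to 4.73, and 2 of the 7 reached a −log10 q of 5, at 7.41 and 11.9. Local backgrounds there were 1.70 to 5.44 times the genome-wide one. The peak at 24 h spanned 190817965 to 190818158 with a fold of 4.64, and it overlapped no control peak. Over all members, 19 of 110 control peaks (17.3%, 10.7 to 25.7), 17 of 180 at 6 h (9.44%, 5.60 to 14.7) and 4 of 11 at 24 h lay within 5 Mb of a chromosome end, where the whole lists had 11.8%, 3.28% and 3.68%. On chromosome 18 alone 6, 12 and 3 members did, and those 3 at 24 h were the neighbouring peaks at the tip of its short arm. The whole lists include the centromere windows. On the arms of the other chromosomes 68 of 710 control peaks, 23 of 972 at 6 h and 6 of 106 at 24 h lay within 5 Mb of an end.

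Few members were found in a second list. Of the 6 h members, 9 of 180 overlapped a control peak by at least 1 bp (5%, 2.31 to 9.28), where 5.25% of all 6 h peaks did. In the other direction 9 of 110 control members overlapped a 6 h peak (8.18%, 3.81 to 14.96), where 5.02% of the list did. Of these 9 pairs, 5 were at ATR and 2 at THAP9. The other two were at RN7SK and at the high-background peak of chromosome 4. Without the peaks of ATR and THAP9, 2 of 173 6 h members overlapped a control peak (1.16%, 0.140 to 4.11), near the 2.06% on the arms of the other chromosomes (20 of 972, 1.26 to 3.16).

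Between the control and 24 h, 5 of 11 members at 24 h overlapped a control peak (45.5%, 16.7 to 76.6), against 51.5% of the 24 h list. In the other direction 4 of 110 control members overlapped a 24 h peak (3.64%, 0.9995 to 9.05), against 9.82%. The whole lists include the centromere windows. On the arms of the other chromosomes the shares were lower, at 9.43% (10 of 106, 4.62 to 16.7) and 1.41% (10 of 710, 0.677 to 2.57). Of the 5 overlapping members at 24 h, 3 were neighbouring peaks at the tip of the short arm of chromosome 18. The control peak there from 107890 to 109435 was the partner of 2 of them. The others were at ATR and at the high-background peak of chromosome 4. The overlaps are thus not independent, as the interval takes them to be. All 5 overlapping members at 24 h had a −log10 q of at least 5. Of the 6 members at 24 h below that value 0 overlapped a control peak, where 3 of 83 on the other arms did (3.61%). Between 24 h and 6 h, 2 of 11 overlapped (18.2%, 2.28 to 51.8), against 17.3% of the list, and 2 of 180 in the other direction (1.11%, 0.135 to 3.96), against 3.77%. On the other arms these shares were 9.43% (10 of 106, 4.62 to 16.7) and 1.03% (10 of 972, 0.494 to 1.88).

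Weak members rarely coincided between lists, as on the other arms. Of the 164 6 h members with a −log10 q under 5, 1 overlapped a control peak (0.610%), at THAP9, where 7 of 910 such peaks on the arms of the other chromosomes did (0.769%). Of the 77 such control members 0 overlapped a 6 h peak, against 7 of 586 on the other arms (1.19%). Allowing 5 kb between peaks raised the 6 h count in the control from 9 to 10 of 180. Within 100 kb, 18 of 180 6 h members had a control peak (10%), against 197 of 972 on the arms of the other chromosomes (20.3%), where control peaks were denser.

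Merged over the lists, the members formed 287 regions. Regions of a sole list numbered 99 (control), 171 (6 h) and 6 (24 h). The control shared 7 regions with the 6 h list and 2 with the 24 h list, and 2 regions had a peak in every list. Those 2 were the ATR peak from 142281074 to 142281952 and the peak on chromosome 4 from 68265483 to 68266031. Of the 11 regions held by more than 1 list, 7 were at ATR or THAP9.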

How the data were processed

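Per the submitters' processing notes, the authors handled reads with FastQC 0.11.9, Trimmomatic and BWA and called peaks with MACS2 2.1.1.20160309 on hg19 (GRCh37). Settings of the caller: not given in the sources used here. The 3 deposited lists, 1 per ChIP library, hold for each peak a fold (a linear ratio at the summit), −log10 p, −log10 q, a score and the summit offset. The deposited score equalled 10 times −log10 q, rounded down, in 100% of peaks.

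The summit pileup and local background of a peak were solved from its fold, (pileup + 1)/(background + 1), and −log10 p under a Poisson model, and kept where the pileup was whole within 0.02 of a step (4% would be by chance). The solution was tested on peaks simulated from the same formula. Their backgrounds were lower than those of the members with low folds and very high pileups. They were higher than the genome-wide backgrounds of the control and 6 h lists. Their ratios of pileup to background stayed below those of the strongest ATR peaks. The test did not cover any of these members. Overlap meant at least 1 bp. Clusters were chains of peaks within 100 kb of the next, at least 6 over all lists. Intervals are exact at 95%. Python 3.11.15, pandas 2.3.3 and SciPy 1.17.1 were used.

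Chromosome lengths and gaps of hg19, and the place of named genes on it, came from general knowledge. Arm lengths leave out the windows and the short arms of chromosomes 13 and 21. No hg19 sequence or annotation was at hand, so no peak sequence is shown. Members, named places and alternatives were chosen with earlier results of these data known. By rule, the 5 peaks of each list with the highest fold and the 5 with the highest −log10 q, clusters, and regions in all lists are named. The other peaks named were chosen after their values were seen. They were those at RN7SK in the control, at MIR30A, near VEGFA, and others on chromosomes 3, 4, 18 and 21. The control peaks at the tip of the short arm of chromosome 18 were among them. Input libraries enter only through the authors' folds and significance values, and through the local backgrounds solved from these.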

Additional observations from a re-analysis of the deposited data

How the results depend on the processing

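No paired analysis was possible because no condition has a second library. Members with a −log10 q of 5 or more numbered 33, 16 and 5 (control, 6 h, 24 h), so the 6 h list was no longer the longest. The control share was then 5.99%, the overlaps 50% (6 h in control) and 100% (24 h in control), the regions of the control, 6 h and 24 h alone 23, 8 and 0, and clusters 1. With 11 peaks per list, 72.7% of 6 h members were in the control. Most of the 6 h overlaps under both of these settings were at ATR or THAP9. Away from these genes, 2 of 10 6 h members with a −log10 q of at least 5 overlapped a control peak. Without the outer 5 Mb, the 24 h count was 7 and the control share 6.82%. Without the chromosome 3 cluster, 2.29% of 6 h members were in the control, with 3 regions in the control and at 6 h and 1 in all lists. Alternatives chosen after seeing the data left out THAP9 too, with 1.16%, 1 and 1 for these, or all of chromosome 3, with 60 control and 99 6 h members, shares of 4.69% and 8.71%, 54 and 95 regions in those lists alone, 3 in both and 1 in all. Peaks within 5 kb gave 1 region in the control and at 24 h. Clusters numbered 1 with neighbours within 50 kb and 5 with at least 4 peaks. These settings remove or join peaks by construction. Of 89 values under these settings, 59 stayed inside the main interval (counts: within 1.5 times) and 30 did not. No list gives a read total.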

Other observations

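Many weak members carried exactly the same fold. Among the 51 members at 6 h whose local background was the genome-wide one there were 13 different folds, and 13 of the peaks had a fold of 4.40. Among the 30 such control members there were 11 different folds, and 9 of the peaks had 4.50. Each of these folds stands for 1 whole number of fragments.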
